A study of Mus musculus with 16 samples.

Results

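Kainic acid, an agonist of kainate-type glutamate receptors, drives hippocampal neurons into seizure activity, and SL327 is a brain-penetrant inhibitor of MEK, the kinase that phosphorylates and activates ERK. The data described here are the hippocampi of mice that received both drugs, compared with hippocampi of mice that received vehicle. They show what differed 1 h after seizure onset when MEK had been inhibited beforehand, and this holds the effects of both drugs, SL327 itself included. The members were all arrays with these 2 labels, 3 for SL327 with kainic acid and 3 for vehicle, which is 6 of the 16 arrays of the series. Every animal was a wildtype male C57BL/6 mouse of 3 months, and each array held RNA of a hippocampus of one animal.

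Mice of the SL327 with kainic acid group received 50 mg/kg SL327 1 h before 20 mg/kg kainic acid, and tissue was taken 1 h after the seizures began. Vehicle mice were killed at 1 h after injection. The sample label gives PBS as their injection and the protocol gives DMSO/PBS, so the solvent they received is uncertain. The 3 other groups were kainic acid alone (20 mg/kg, 1 h, n = 3), SL327 alone (50 mg/kg, labelled 1 h, n = 3) and untreated mice (0 h, n = 4). The tissue was whole hippocampus, in which fewer cells of a type and less RNA per cell cannot be told apart.

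When neurons fire, calcium entry activates several kinase pathways, and within minutes these induce immediate early genes without new protein synthesis. ERK, once activated by MEK, switches on serum response factor and its partners, while calcium- and cyclic AMP-dependent kinases act on CREB and its coactivators of the CRTC family. ERK signalling is shut off by feedback genes, among them the phosphatases of the Dusp family, the Sprouty proteins and Errfi1. Transcripts that differ from vehicle after both drugs can therefore be looked at by pathway: immediate early genes, ERK feedback, CREB targets, stress genes, glucocorticoid-inducible genes, clock genes and genes of the synapse.

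Expression was measured on exon arrays as RMA values on the log2 scale, and a probe set is the group of probes that reports 1 transcript. Of 15417 probe sets with a gene name, 8520 passed a filter on low values and were tested with limma. The median value over the tested probe sets lay between 8.04 and 8.16 on every array. Defining markers of the hippocampus were present: Prox1, which marks dentate granule cells, had values of 10.60 to 10.97 on vehicle arrays and 10.52 to 11.14 on SL327 with kainic acid arrays. Of 117 markers listed, 64 of 10 cell types were tested, and 0 passed the test in SL327 with kainic acid against vehicle by limma. Among those not tested were Cldn5, Pecam1, Cx3cr1, C1qa and Slc1a3. Because only 0.681% of all tested probe sets were called higher and 0.188% lower, 0 of 64 cannot show that cell composition was unchanged. Of the 7 blood markers listed, 1 was in the table and 0 passed the filter. Choroid plexus markers varied most between arrays, and Ttr spanned 9.38 to 11.80 on vehicle arrays and 9.12 to 11.96 on SL327 with kainic acid arrays.

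Replicate 2 of SL327 with kainic acid stood apart from the other 2 arrays of its group in activity genes. Npas4, a transcription factor induced by neuronal calcium entry, had values of 11.99 and 12.27 in replicates 1 and 3, but 8.13 in replicate 2. The vehicle arrays had 7.65, 8.12 and 7.42. Replicate 2 was the lowest of the 3 arrays in 15 of 18 measured activity transcription factors (83.3%), compared with 31.1% of all tested probe sets. It was also the array nearest to vehicle in 36 of the 58 probe sets called higher, compared with 12 and 10 for replicates 1 and 3. Among the 16 called lower it was nearest in 3, compared with 4 and 9. The labels used here give no seizure score. Counts of calls are given with and without this array.

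**Figure D1:**
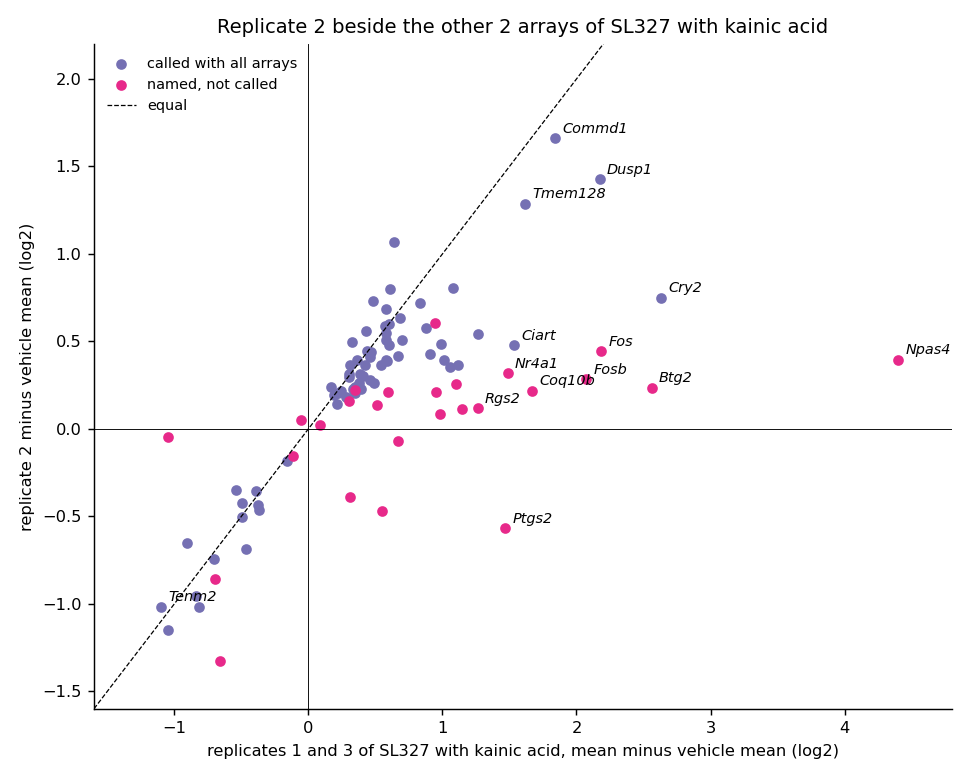
Log2 difference of replicate 2 of SL327 with kainic acid from the vehicle mean (vertical axis) against the mean difference of replicates 1 and 3 (horizontal axis), for called probe sets and for genes named without a call; the dashed line marks equal values. Npas4, Btg2, Fos and Fosb lie far below the line, at 4.40, 2.56, 2.18 and 2.07 on the horizontal axis, while Commd1 and Tenm2 lie near it.

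SL327 with kainic acid raised 58 probe sets relative to vehicle and lowered 16, at an adjusted p under 0.05 (limma, Benjamini-Hochberg over all tested probe sets). These were 0.681% and 0.188% of the probe sets tested. The raised probe sets reported 55 genes singly and 3 were shared by several genes, and the lowered ones reported 13 genes, with 2 shared. Changes were mostly small: the median was 0.52 among the raised (range 0.19 to 2.0) and -0.50 among the lowered (range -1.08 to -0.17), while the median over all tested probe sets was 0.01. Only 6 raised probe sets and 2 lowered ones moved by at least 1 on the log2 scale. At an unadjusted p under 0.05, 778 probe sets were higher and 385 lower. All 3 arrays lay above all 3 vehicle arrays in 14.4% of tested probe sets and below them in 8.59%.

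The number of calls depended on single arrays. When replicate 1, 2 or 3 of the group with both drugs was left out, 12, 114 and 16 probe sets were higher and 4, 20 and 8 lower. Without vehicle replicate 1, 2 or 3, 11, 17 and 9 were higher and 4, 4 and 3 lower. Leaving out untreated replicate 2 gave 91 higher and 26 lower, and leaving out untreated replicate 4, kainic acid replicate 3 or SL327 replicate 3 gave 9, 10 and 10 lower. Of the 69 called probe sets that report a single gene, 51 were also called without replicate 2. The calls lost without it were those of Rbm22, Foxf1, Akirin2, Med29, Lyrm9, Tmem181a, Unc50, Cct2, Nploc4 and Tmem183a among the raised, and of Mthfs, Dnm1l, Stx2, A330023F24Rik, 4632427E13Rik, Zfp113, Zfp748 and 1 of the 2 Kcnq1ot1 probe sets among the lowered. Of the 69, 9 were called in every alternative in which they were tested. These 9 were Tubb2a, Sik1, Pop4, Dusp1, Gas5, Rlf and Commd1, which rose, and Rtn4r and Sox18, which fell.

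**Figure D2:**
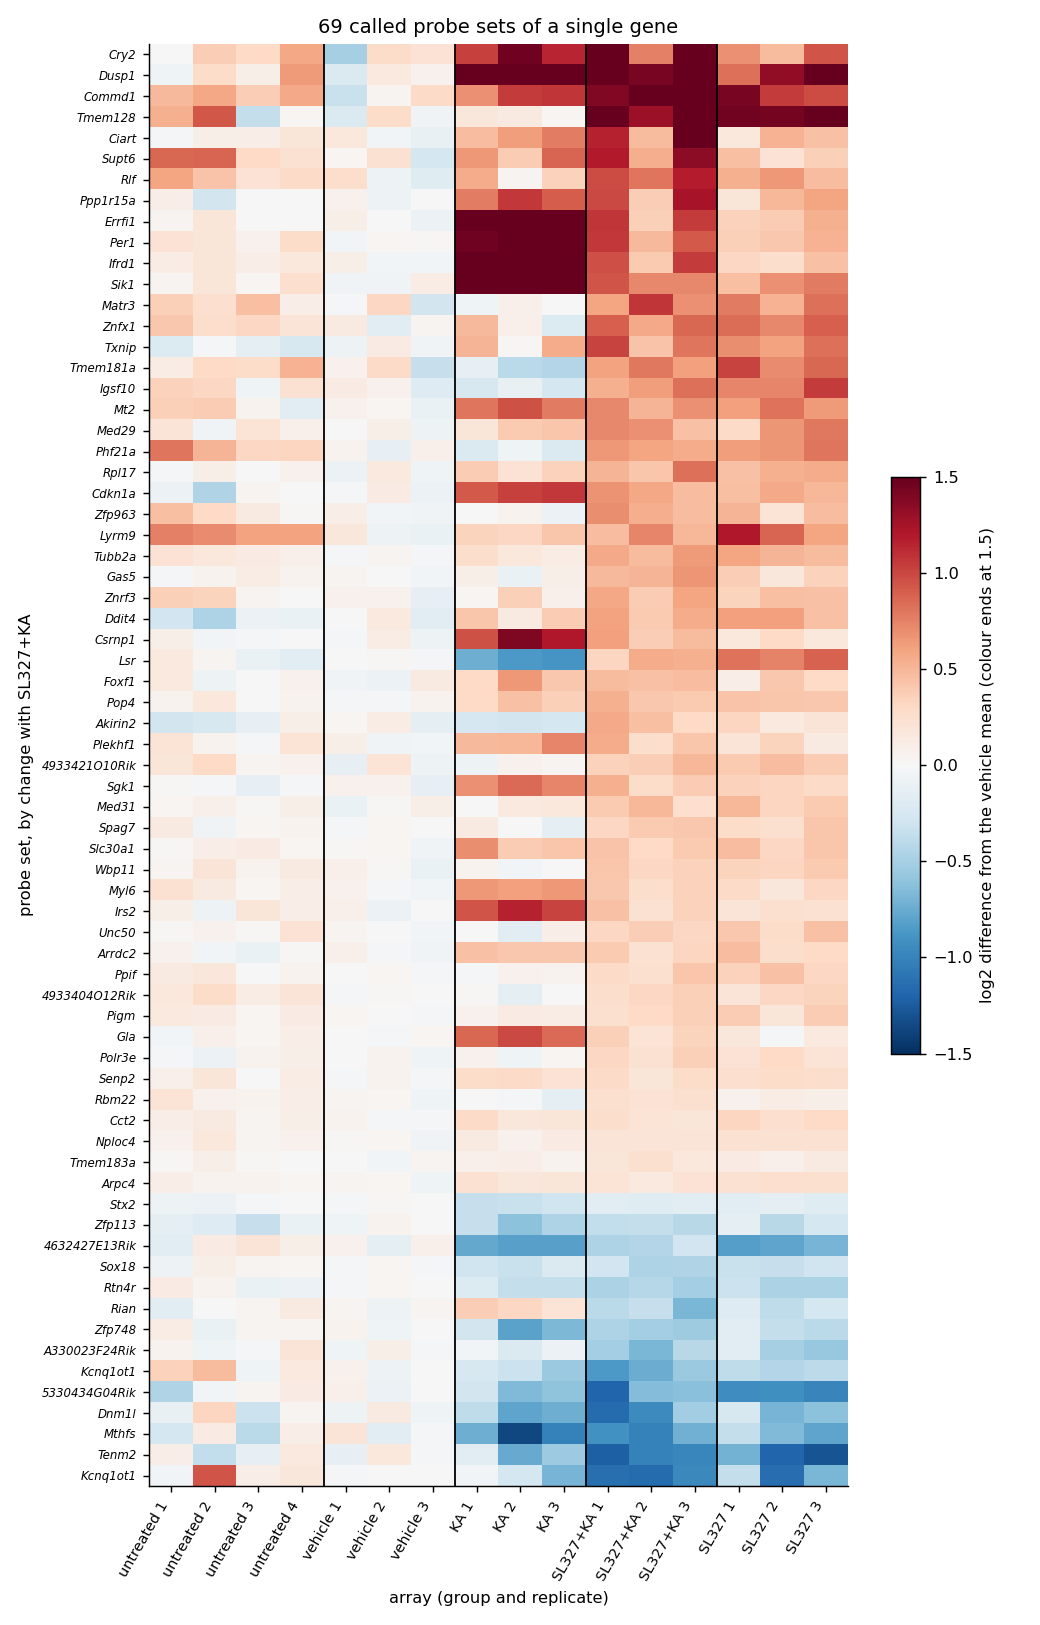
Log2 difference from the vehicle mean on each of the 16 arrays (columns, by group and replicate) for the 69 called probe sets of a single gene (rows, ordered by their change with SL327 and kainic acid). The colour scale ends at 1.5 in either direction. The 3 arrays of SL327 with kainic acid share a sign in every row by the way the rows were chosen, and Ifrd1, Errfi1, Per1 and Sik1 are darker with kainic acid alone.

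In promoter windows of RefSeq genes (GRCm38.p6, 250 bases before to 50 after the start), the raised genes were searched for elements of the pathways named above. Of the 55 raised genes, 48 had 67 windows between them, and 14.9% of these windows held the cyclic AMP response element TGACGTCA, compared with 3.16% of the 7916 windows of all tested genes. It was found on either strand in 9 genes: Dusp1, Errfi1, Gas5, Myl6, Pop4, Ppp1r15a, Senp2, Tmem183a and Tubb2a. The windows of the lowered genes held it in 0 of 15. The stretches below are shown because they carry this shared feature in 6 genes with a called rise, on the gene's own strand, with TGACGTCA in capitals, a palindrome that reads alike on both strands. In Dusp1 the E-box CACGTG is capitalised as well.
Dusp1 (chr17:26508563-26508642, minus strand): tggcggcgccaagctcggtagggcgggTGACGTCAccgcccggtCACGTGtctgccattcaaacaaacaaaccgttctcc
Tubb2a (chr13:34078029-34078108, minus strand): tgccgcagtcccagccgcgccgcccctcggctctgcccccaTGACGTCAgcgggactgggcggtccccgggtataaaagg
Pop4 (chr7:38271349-38271428, minus strand): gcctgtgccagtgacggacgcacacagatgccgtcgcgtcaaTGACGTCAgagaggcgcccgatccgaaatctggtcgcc
Gas5 (chr1:161035076-161035155, plus strand): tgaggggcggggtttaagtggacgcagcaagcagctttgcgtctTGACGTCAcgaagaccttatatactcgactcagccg
Errfi1 (chr4:150854980-150855059, plus strand): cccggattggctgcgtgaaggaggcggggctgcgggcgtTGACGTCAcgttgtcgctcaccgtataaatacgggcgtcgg
Ppp1r15a (chr7:45526269-45526348, minus strand): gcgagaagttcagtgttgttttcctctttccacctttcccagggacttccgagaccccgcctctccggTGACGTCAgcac

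These 6 genes did not share a pattern across the single treatments. With kainic acid alone the change from vehicle was 2.84 in Dusp1 and 2.13 in Errfi1, but 0.18 in Tubb2a and 0.02 in Gas5. With SL327 alone it was 1.22, 0.42, 0.53 and 0.29 in the same order. Other elements were nearer their background: the shorter core TGACG, which the palindrome contains, stood in 46.3% of windows of raised genes and 31.7% of all, the AP-1 element TGANTCA in 5.97% and 4.52%, the CArG box of serum response factor in 4.48% and 1.28% (3 windows), the EGR element GCGTGGGCG in 2.99% and 1.21%, the E-box CACGTG in 14.9% and 9.88%, and the glucocorticoid hexamer AGAACA in 14.9% and 11.7%. A match is a description of letters and was not tested.

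The windows of Ciart and Sgk1 are shown for their density of one element. Ciart held the E-box bound by clock activators 3 times, and an Sgk1 window held the glucocorticoid hexamer AGAACA or its complement TGTTCT 3 times, the first overlapping an E-box. Capitals mark these elements.
Ciart (chr3:95882259-95882358, minus strand): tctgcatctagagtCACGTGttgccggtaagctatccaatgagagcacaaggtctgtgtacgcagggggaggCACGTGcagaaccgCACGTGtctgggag
Sgk1 (chr10:21993640-21993739, plus strand): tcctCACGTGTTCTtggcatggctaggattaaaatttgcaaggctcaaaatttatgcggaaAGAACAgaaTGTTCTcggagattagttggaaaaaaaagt

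Among feedback genes of ERK signalling, Dusp1 and Errfi1 rose, and 0 of the 16 measured members fell by the test. The shares over all tested probe sets were 0.681% and 0.188%. At an unadjusted p under 0.05 by limma, 3 members were higher and 4 lower, beside 778 and 385 of all 8520 tested probe sets. All arrays with both drugs lay above all vehicle arrays in 4 members and below them in 4. Over all tested probe sets these shares were 14.4% and 8.59%. Dusp1, a phosphatase that inactivates MAP kinases, had values of 11.05, 10.12 and 10.69 with both drugs and 8.49, 8.85 and 8.76 with vehicle. The groups did not overlap, and the change was 1.92 ± 0.29 (SE, n = 3 and 3, limma adjusted p = 0.00669), or 3.79-fold. With kainic acid alone it reached 10.86, 11.88 and 11.88, and with SL327 alone 9.52, 10.03 and 10.21. The arrays with both drugs overlapped each single treatment by 1 array. Errfi1, an inhibitor of the EGF receptor, rose by 0.82 ± 0.14 (limma adjusted p = 0.021) from 8.63, 8.54 and 8.45 to 9.61, 8.89 and 9.59. With kainic acid alone its change from vehicle was 2.13.

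No other feedback gene passed the test. The median of the list was -0.02, beside 0.42 with kainic acid alone. Spry4, a Sprouty inhibitor of receptor tyrosine kinase signalling, differed from vehicle by -0.31 (limma adjusted p = 0.27), and Dusp6, the ERK phosphatase of the cytoplasm, by 0.07 (limma adjusted p = 0.86). Of 8 genes commonly read as output of MEK, 0 passed the test and their median was -0.07, beside 0.58 with kainic acid alone. The nearest to the threshold was Egr1, a zinc finger transcription factor, at 0.47 ± 0.10 (limma adjusted p = 0.0511), with values of 8.39, 8.01 and 8.39 against 7.74, 7.79 and 7.87.

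In a list of salt-inducible kinases, regulators of CREB and genes linked to them, Per1, Ifrd1, Sik1 and Irs2 rose and 0 of the 16 measured members fell. The shares over all tested probe sets were 0.681% and 0.188%. Sik1, a kinase that phosphorylates the CRTC coactivators and is itself induced by CREB, had 9.05, 8.83 and 8.84 with both drugs and 8.06, 8.06 and 8.22 with vehicle. Its change was 0.79 ± 0.10 (SE, limma adjusted p = 0.00172), and replicate 2 was as high as replicate 3. With SL327 alone Sik1 stood at 8.56, 8.80 and 8.90, close to the values with both drugs, and with kainic acid alone at 9.72, 9.99 and 9.92. Ifrd1, a transcriptional coregulator, changed by 0.80 ± 0.15 (limma adjusted p = 0.0246), and Irs2, an adaptor of the insulin receptor, by 0.34 ± 0.07 (limma adjusted p = 0.0491). Both were changed more by kainic acid alone, by 2.49 and 1.04.

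The largest rise among the called genes was that of a clock gene. Cry2, a cryptochrome that represses CLOCK and BMAL1, had 9.04, 7.56 and 9.85 with both drugs and 6.32, 7.09 and 7.03 with vehicle, a change of 2.0 ± 0.40 (SE, limma adjusted p = 0.0353) or 4.01-fold. Kainic acid alone gave 7.85, 8.28 and 7.96, so that replicates 1 and 3 with both drugs exceeded every array of the single treatments. Ciart, another repressor of the clock, rose by 1.18 ± 0.24 (limma adjusted p = 0.0373), from 7.49, 7.29 and 7.23 to 8.49, 7.82 and 9.25. Here too replicates 1 and 3 with both drugs stood above all kainic acid arrays (7.80, 7.96 and 8.10). Per1, a period gene that light, CREB and glucocorticoids induce, rose by 0.82 ± 0.12 (limma adjusted p = 0.00548), from 8.88, 8.95 and 8.93 to 9.98, 9.41 and 9.85.

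The excess of Cry2 and Ciart over kainic acid alone did not pass the test. Cry2 was 0.79 higher than with kainic acid alone (limma adjusted p = 0.18) and Ciart 0.56 higher (limma adjusted p = 0.11). No other clock gene with a probe set of its own passed the test. Of 15 measured in this way, 3 rose and 0 fell, beside 0.681% and 0.188% of all tested probe sets. The median of the 15 was 0.04. The activator gene Clock differed by 0.01 and the output gene Dbp by 0.12 (limma adjusted p = 0.98 and 0.40).

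**Figure D3:**
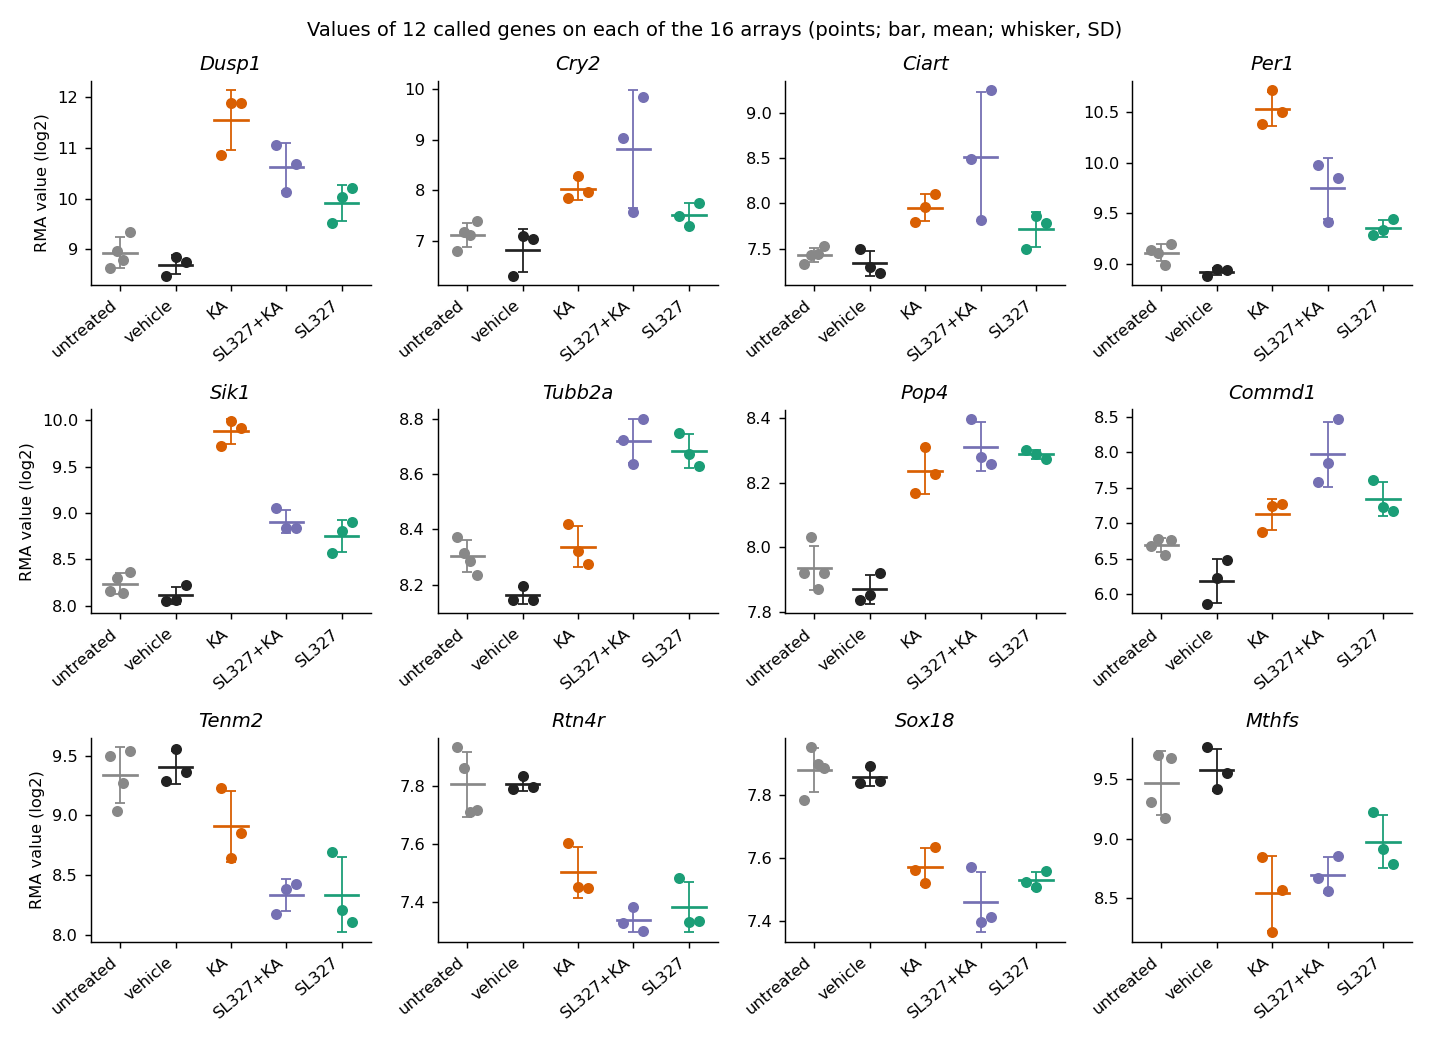
RMA values on the log2 scale (vertical axes, each with its own range) of 12 called genes on the 16 arrays, by group; points are arrays, bars group means and whiskers SD (n = 4 for untreated, otherwise 3). Sik1 and Per1 show a level between vehicle and kainic acid alone, Tubb2a and Tenm2 the level of SL327 alone, and Cry2 and Ciart 2 arrays above every other.

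Glucocorticoid-inducible genes were the list with the most calls. Of 18 measured members, 7 rose (Errfi1, Per1, Mt2, Cdkn1a, Ddit4, Sgk1 and Arrdc2) and 0 fell, beside 0.681% and 0.188% of all tested probe sets. The median of the list was 0.14, as with SL327 alone (0.14). Of these 7, Errfi1, Per1, Cdkn1a and Ddit4 also stand on the lists of ERK feedback, CREB, clock or stress genes. Mt2, a metallothionein that binds zinc and copper, had 9.97, 9.76 and 9.94 against 9.32, 9.29 and 9.15 with vehicle, a change of 0.64 ± 0.12 (SE, limma adjusted p = 0.0257). SL327 alone gave 9.87, 10.07 and 9.90 and kainic acid alone 10.06, 10.21 and 10.04, so that arrays with both drugs overlapped those of SL327 alone and lay just under those of kainic acid alone. Sgk1, a kinase of ion channel regulation, rose by 0.40 ± 0.07 and Arrdc2, an arrestin-domain protein, by 0.32 ± 0.06 (limma adjusted p = 0.021 and 0.0288).

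Fkbp5, a chaperone and classic glucocorticoid target, differed by 0.12 (limma adjusted p = 0.61), and the receptor gene Nr3c1 by -0.16 (limma adjusted p = 0.32). Slc30a1, the zinc exporter, which is induced by zinc together with the metallothioneins, rose by 0.37 ± 0.07 (limma adjusted p = 0.0292). Txnip, the thioredoxin-binding relative of Arrdc2, had 8.35, 7.76 and 8.13 against 7.26, 7.46 and 7.28, a change of 0.75 ± 0.15 (limma adjusted p = 0.0304). SL327 alone gave 8.04, 7.94 and 8.17 in this gene.

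Of 15 measured stress and p53 genes, Ppp1r15a, Cdkn1a and Ddit4 rose and 0 fell, beside 0.681% and 0.188% of all tested probe sets. Ppp1r15a, a regulatory subunit of protein phosphatase 1 in the stress response, had 7.82, 7.19 and 8.06 against 6.90, 6.75 and 6.84, a change of 0.87 ± 0.18 (SE, limma adjusted p = 0.0364). Kainic acid alone changed it by 0.91, and the difference between both drugs and kainic acid alone was -0.05 (limma adjusted p = 0.88). Cdkn1a, an inhibitor of cyclin-dependent kinases, changed by 0.57 ± 0.10 (limma adjusted p = 0.0246), from 7.46, 7.61 and 7.4 to 8.16, 8.07 and 7.95. Ddit4, an inhibitor of mTOR signalling, changed by 0.52 ± 0.11 (limma adjusted p = 0.0441), with 9.16, 9.17 and 8.98 in SL327 alone and 9.15, 8.94 and 9.10 with both drugs.

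The canonical immediate early transcription factors moved far on 2 arrays and little on the other. Of 18 measured, 1 passed the test with all arrays (Csrnp1, a nuclear transcription factor, 0.48 ± 0.10, limma adjusted p = 0.0313), and 15 had an unadjusted p under 0.05 in the upward direction. Over all 8520 tested probe sets, 0.681% were called higher and 778 had that unadjusted p upwards. In 14 of the 18, all arrays with both drugs exceeded all vehicle arrays, beside 14.4% of all tested probe sets. In 1 they all lay below, beside 8.59%. The median of the list was 0.57, 0.21 and 0.65 in replicates 1, 2 and 3, and 1.29 with kainic acid alone. Fos, the AP-1 subunit, had 9.29, 7.38 and 8.95 with both drugs against 6.86, 6.93 and 7.03 (1.60 ± 0.47, limma adjusted p = 0.13). Fosb gave 9.12, 7.39 and 9.24 against 7.06, 7.18 and 7.08 (1.48 ± 0.42, limma adjusted p = 0.12). Npas4 differed by 3.07 ± 0.76 (limma adjusted p = 0.0789), Btg2, an antiproliferative regulator of mRNA decay, by 1.79 ± 0.50 (limma adjusted p = 0.12), and the nuclear receptor gene Nr4a1 by 1.10 ± 0.26 (limma adjusted p = 0.0662).

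Replicate 2 was singled out for its low values in these same genes, so values without it follow in part from that choice and are given as a description. Without it 12 of the 18 transcription factors were called, all upwards. Npas4 was then 4.40 above vehicle, Btg2 2.56, Fos 2.18 and Fosb 2.07. Plk2, a kinase that dampens synapses after activity, was 0.98 above vehicle and Rgs2, a brake on G protein signalling, 1.26. In this fit 114 probe sets were higher and 20 lower, 1.34% and 0.235% of 8497 tested, and 48 and 7 of them were called with all arrays too. Coq10b, a gene of coenzyme Q function, is of this kind: its values were 9.20, 7.99 and 9.70 against 7.94, 7.47 and 7.92, and without replicate 2 it stood 1.67 above vehicle.

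In Homer1, Inhba and Neat1 the arrays with both drugs overlapped those of vehicle. Homer1, which encodes a postsynaptic scaffold, had 8.81, 8.91 and 8.79 with both drugs and 8.89, 8.83 and 8.84 with vehicle, while kainic acid alone gave 10.45, 10.49 and 10.45. Inhba, a subunit of activin, had 7.15, 7.02 and 6.98 against 7.32, 7.06 and 7.15, and kainic acid alone gave 9.27, 10.25 and 9.24. The difference from vehicle was -0.02 ± 0.07 for Homer1 and -0.13 ± 0.19 for Inhba (limma adjusted p = 0.95 and 0.85). The long non-coding RNA Neat1, read here from 1 probe set at 8.27, 8.34 and 8.54, overlapped the vehicle arrays at 8.29, 8.37 and 8.29. The paper separates a short and a long form of Neat1, and reports more of the long form on its arrays after both drugs. Which form this probe set reports was not examined.

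Arc, a regulator of AMPA receptor trafficking, split by array: 10.53 and 10.43 in replicates 1 and 3 and 9.46 in replicate 2, against 9.90, 9.99 and 9.90 with vehicle. SL327 alone gave 9.43, 9.08 and 9.34, so replicate 2 lay just above the inhibitor alone, and untreated mice spanned 9.38 to 10.57. Ptgs2, the inducible cyclooxygenase, was likewise lowest in replicate 2, with 8.60, 6.55 and 8.59 against 7.25, 7.25 and 6.87. Over 24 measured synaptic and secreted effectors, 0 passed the test with all arrays, and 8 had an unadjusted p under 0.05, all upwards. In 7 all arrays with both drugs exceeded all vehicle arrays, and in 1 they all lay below. Over all 8520 tested probe sets, 778 were higher at that p, and 14.4% had all arrays above vehicle. The median of the effectors was 0.21, beside 1.27 with kainic acid alone. Without replicate 2, which was chosen for its low values in genes of this kind, 5 were called, all upwards: Ptgs2, Plk2, the protocadherin gene Pcdh8, Rasl11b and Nrn1, which encodes neuritin.

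**Figure D4:**
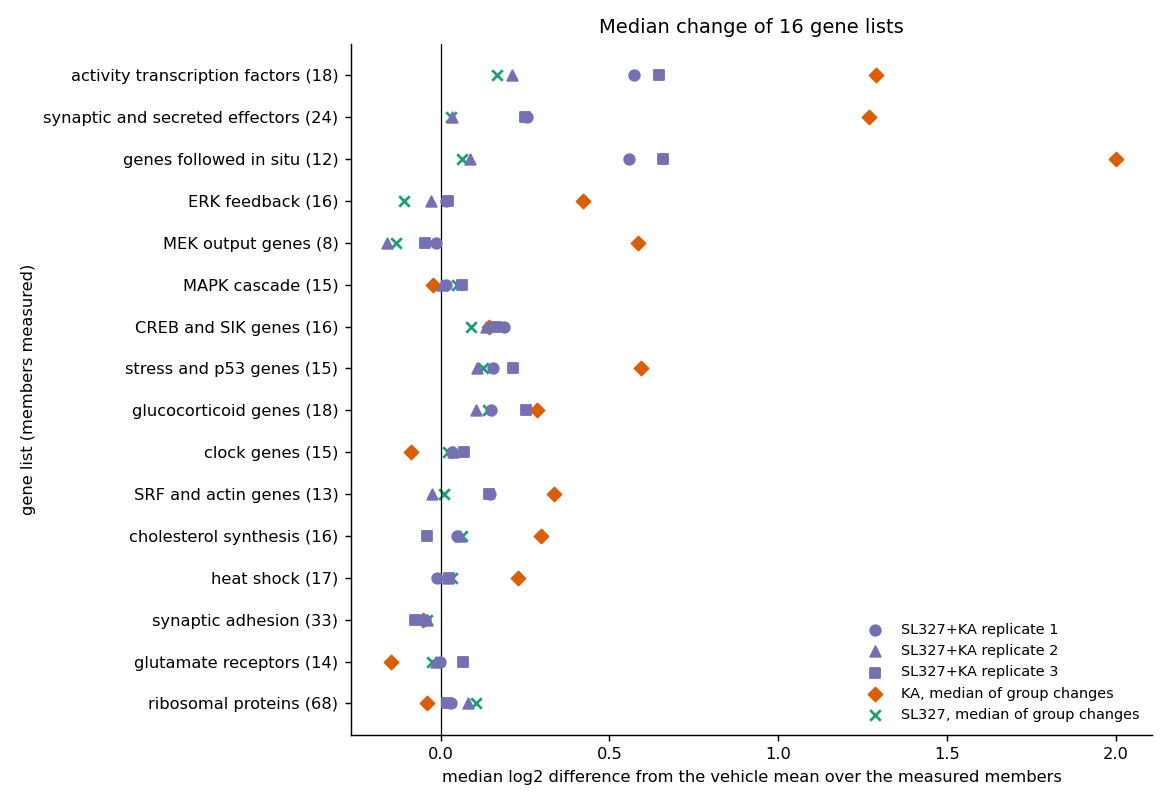
Median log2 difference from the vehicle mean over the measured members of 16 gene lists (vertical axis, with the number measured); the purple markers are the arrays of SL327 with kainic acid, the orange marker is the median change with kainic acid alone and the green cross that with SL327 alone. In the activity transcription factors replicate 2 lies at 0.21 and replicates 1 and 3 at 0.57 and 0.65, and the receptor, adhesion and ribosomal lists lie near 0.

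Further raised genes stand on none of the activity lists and were also raised by SL327 alone. Tubb2a, a beta-tubulin, had the smallest adjusted p of all probe sets: 8.72, 8.64 and 8.80 with both drugs against 8.14, 8.20 and 8.14 with vehicle, a change of 0.56 ± 0.06 (SE, limma adjusted p = 0.000582). SL327 alone gave 8.75, 8.67 and 8.63, and kainic acid alone 8.42, 8.32 and 8.27. Tmem128, a membrane protein, had 7.96, 7.70 and 8.10 against 6.19, 6.68 and 6.36 (1.51 ± 0.24, limma adjusted p = 0.0108), and SL327 alone gave 7.85, 7.84 and 8.08. Lsr, a lipoprotein receptor of tricellular junctions, rose by 0.47 ± 0.08 with both drugs (limma adjusted p = 0.0169) and by 0.81 with SL327 alone, and kainic acid alone changed it by -0.83. A second Lsr probe set differed by 0.13 (limma adjusted p = 0.61).

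Of 17 measured RNA polymerase subunits 1 rose (Polr3e), of 60 genes on a list of splicing factors 1 rose (Rbm22), and 0 fell in either list. Over all tested probe sets 0.681% rose and 0.188% fell. Gas5, a non-coding RNA that hosts small nucleolar RNAs, had 8.90, 8.91 and 9.07 against 8.45, 8.41 and 8.36 (0.55 ± 0.07, limma adjusted p = 0.00172), and kainic acid alone gave 8.49, 8.30 and 8.49. Pop4, a subunit of the RNase P and RNase MRP ribonucleoproteins, rose by 0.44 ± 0.05 (limma adjusted p = 0.00172), and stood between 8.17 and 8.40 on all 9 arrays of the drug-treated groups. The Mediator subunits Med29 and Med31 rose by 0.61 and 0.38 (limma adjusted p = 0.0271 and 0.0248), and the RNA polymerase III subunit Polr3e by 0.30 (limma adjusted p = 0.0248). Rbm22 rose by 0.23, and Wbp11, a splicing factor that is not on the list, by 0.36 (limma adjusted p = 0.0442 and 0.00951). Rpl17 was the only ribosomal protein gene called, at 0.59 (limma adjusted p = 0.00949), out of 68 measured in that list, whose median was 0.05.

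Commd1, a copper and NF-kB regulator, had a higher mean with both drugs than with either alone, though its arrays overlapped those of SL327 alone. Its values were 7.58, 7.85 and 8.47 with both, 6.87, 7.23 and 7.26 with kainic acid, 7.61, 7.23 and 7.16 with SL327, and 5.86, 6.23 and 6.48 with vehicle. It was 1.78 ± 0.20 above vehicle (SE, limma adjusted p = 0.00168) and 0.84 above kainic acid alone (limma adjusted p = 0.011), while the excess over SL327 alone, 0.63, did not pass the test (limma adjusted p = 0.30). A second Commd1 probe set changed by 1.08 (limma adjusted p = 0.0592). Further Commd1 probe sets under the filter differed by -0.12 and -0.05 and were not tested. Rlf, a zinc finger protein, was likewise 0.99 ± 0.14 above vehicle (limma adjusted p = 0.00636) and 0.68 above kainic acid alone (limma adjusted p = 0.006), but its second probe set differed from vehicle by 0.09 (limma adjusted p = 0.62).

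Other tested probe sets of called genes numbered 21, from 16 of the 68 genes, and 0 of them were called. Of these, 6 had an unadjusted p under 0.05 by limma, and 19 had the sign of the called probe set. Among them Supt6 differed by 0.10, Znfx1 by 0.02, Lyrm9 by 0.01 and Matr3, an RNA-binding protein of the nuclear matrix, by -0.06, so that the rises of these genes rest on 1 probe set.

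The lowered genes held 2 of 33 measured genes of synaptic adhesion, both of cell surface receptors, and 0 of that list rose. The shares over all tested probe sets were 0.188% lower and 0.681% higher. Tenm2, a teneurin that joins synaptic partners, had 8.18, 8.38 and 8.43 against 9.29, 9.55 and 9.37 with vehicle, a change of -1.07 ± 0.17 (SE, limma adjusted p = 0.0113). SL327 alone gave 8.70, 8.21 and 8.10 and kainic acid alone 9.23, 8.65 and 8.85. A second Tenm2 probe set differed by -0.09 (limma adjusted p = 0.66), so the 2 probe sets of this gene did not show one size of change. Rtn4r, the receptor of the axon growth inhibitor Nogo, had 7.33, 7.38 and 7.30 against 7.79, 7.84 and 7.80 (-0.47 ± 0.07, limma adjusted p = 0.0053).

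Sox18, a transcription factor of endothelial cells, had 7.57, 7.4 and 7.41 against 7.84, 7.89 and 7.84 (-0.40 ± 0.05, SE, limma adjusted p = 0.00463). SL327 alone gave 7.52, 7.51 and 7.56 and kainic acid alone 7.56, 7.52 and 7.64, so all drug-treated arrays lay under every vehicle array. Of 7 tested endothelial markers, 0 passed the test, while 2 were higher and 1 lower at an unadjusted p under 0.05 by limma. Over all 8520 tested probe sets these counts were 778 and 385. The changes of the 7 ran from -0.35 to 0.24, and the endothelial markers Cldn5 and Pecam1 were not tested. Mthfs, an enzyme of folate metabolism, fell by 0.88 ± 0.17 (limma adjusted p = 0.0304), and kainic acid alone changed it by -1.04. Dnm1l, the GTPase of mitochondrial fission, fell by 0.88 ± 0.18 (limma adjusted p = 0.0396) in one probe set, while others of this gene differed by -0.67 and -0.04 (limma adjusted p = 0.12 and 0.88). Stx2, a syntaxin of membrane fusion, changed least, by -0.17 ± 0.04 (limma adjusted p = 0.0491).

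Of 8 measured long non-coding RNAs, each by its probe set of highest mean, 1 rose (Gas5) and 0 fell. The shares over all tested probe sets were 0.681% and 0.188%. Other probe sets of 2 of these RNAs were lowered. Kcnq1ot1, transcribed antisense to the potassium channel gene Kcnq1, fell in 2 probe sets, by 1.08 ± 0.23 and by 0.72 ± 0.12 (limma adjusted p = 0.0464 and 0.0156). In the first, arrays with both drugs had 7.04, 7.02 and 7.20 and vehicle arrays 8.16, 8.18 and 8.18. The 2 further tested Kcnq1ot1 probe sets differed by -0.22 and -0.18 (limma adjusted p = 0.74 and 0.78), and 3 under the filter by 0.39, -0.34 and -0.19. Rian, a transcript of the Dlk1-Dio3 locus, had 8.42, 8.47 and 8.14 against 8.86, 8.74 and 8.86 (-0.48 ± 0.09, limma adjusted p = 0.0248). Kainic acid alone gave 9.19, 9.13 and 9.02, above every vehicle array. A second Rian probe set differed by -0.28 (limma adjusted p = 0.13).

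Lists with 0 members called in either direction included cholesterol synthesis (16 measured, median 0.02), heat shock (17, 0.04), serum response factor and actin genes (13, 0.09), the MAPK cascade itself (15, 0.03), glutamate receptors (14, -0.01), GABA and glycine receptors (11, -0.02), sodium, calcium, HCN and TRP channels (32, 0.02), presynaptic genes (30, -0.01), chromatin regulators (60, 0.02), the proteasome (23, 0.05) and the respiratory chain (45, 0.02). Others were potassium channels (46, -0.01), Rgs and small GTPase genes (9, 0.06) and mRNA regulators (15, 0.10). Of the potassium channels, 6 were lower and 1 higher at an unadjusted p under 0.05 by limma, beside 385 and 778 of all 8520. Because only 0.681% of all tested probe sets rose and 0.188% fell, 0 calls in lists of these sizes say little about them. In the serum response factor list, replicate 2 was the lowest of the 3 arrays with both drugs in 13 of 13 genes.

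Called genes were also looked up in 2 comparisons made with other arrays, SL327 alone against untreated and kainic acid alone against untreated. SL327 alone raised 3.58% and lowered 1.6% of tested probe sets against untreated, and kainic acid alone 7.97% and 24.8%. Of the 58 raised probe sets, 32 (55.2%) were also raised by SL327 alone, which is 10.5% of those that SL327 raised, and 0 were lowered. By kainic acid alone 26 (44.8%) were raised, 3.83% of those that kainic acid raised, and 8 were lowered. Of the 16 lowered probe sets, 9 (56.2%) were lowered by SL327 alone and 12 (75%) by kainic acid alone, which are 6.62% and 0.567% of the probe sets each drug lowered. Of these 16, Rian alone was raised by kainic acid.

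By these calls the 55 raised genes fell into 4 groups. In 14 genes both drugs alone raised the level, among them Dusp1, Sik1, Mt2, Cdkn1a, Sgk1, Pop4 and Slc30a1. In 17 only SL327 did, among them Tubb2a, Gas5, Tmem128, Lsr, Igsf10, Znfx1, Polr3e, Ppif and Wbp11. In 10 only kainic acid did: Per1, Errfi1, Ifrd1, Irs2, Csrnp1, Ppp1r15a, Gla, Myl6, Foxf1 and Plekhf1. In 14 neither raised the level by the test against untreated, among them Cry2, Ciart, Commd1, Rlf, Supt6 and Matr3. Against vehicle, whose arrays the main comparison shares, most of the 14 were raised by a single treatment. Commd1 was raised by each drug and Cry2 by kainic acid. SL327 raised Rlf, Matr3, Phf21a, Lyrm9, Zfp963, Znrf3, 4933404O12Rik and 4933421O10Rik. Ciart, Supt6, Rbm22 and Tmem183a were raised by neither. Kainic acid alone lowered 4 of the 14 against untreated: Phf21a, 4933404O12Rik, Rbm22 and Lyrm9. Untreated mice stood above vehicle mice in some of the last group, as in Phf21a, whose untreated values ran from 9.03 to 9.52, vehicle values from 8.59 to 8.79 and values with both drugs from 9.27 to 9.37. Lyrm9 was another such gene, and its difference from untreated mice was -0.11 beside 0.56 from vehicle.

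**Figure D5:**
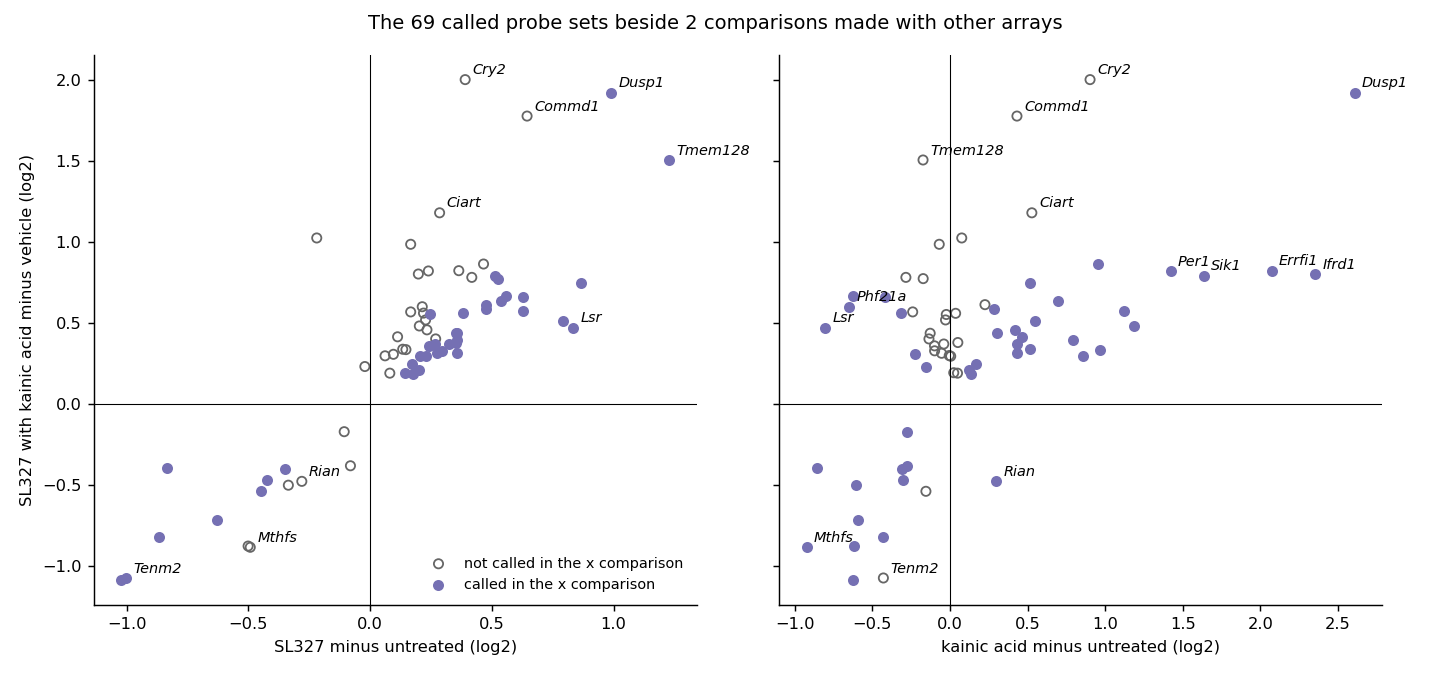
Log2 change of the 69 called probe sets with SL327 and kainic acid relative to vehicle (vertical axes) against the change with SL327 alone (left) or kainic acid alone (right) relative to untreated mice (horizontal axes); filled points passed the test in the horizontal comparison. No array is shared between the axes. On the left no filled point lies in a quadrant of opposite signs, while on the right Lsr, Phf21a, Igsf10 and Rian are among those that do.

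Compared with SL327 alone, 0 probe sets passed the test (0%), with a smallest adjusted p of 0.165, and 897 had an unadjusted p under 0.05 by limma, 227 higher and 670 lower. Without replicate 2, 32 were higher and 15 lower (0.377% and 0.177%). Without any other single array 0 passed, and since replicate 2 was chosen for its low values in activity genes, these differences are a description. The higher ones included Npas4 (3.94), Btg2 (2.39), Fosb (1.94), Cry2 (1.93), Ptgs2 (1.83), Coq10b (1.5), Nr4a1 (1.23), Rgs2 (1.2), Ciart (1.16), Plk2 (0.80), Ppp1r15a (0.69), Errfi1 (0.64) and Per1 (0.56) on the log2 scale. The lower ones included Vwc2l, a secreted protein (-1.05), Slc5a3, the inositol transporter (-0.54), and Oprl1, the nociceptin receptor (-0.38).

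Compared with kainic acid alone, 1114 probe sets were higher and 499 lower (13.1% and 5.86%). This comparison shares the arrays with both drugs with that against vehicle. The 58 raised probe sets split between both directions, with 26 above kainic acid alone and 11 below it. Below it were, among others, Ifrd1 (-1.69), Errfi1 (-1.31), Sik1 (-0.97), Dusp1 (-0.92) and Per1 (-0.79). Above it were, among others, Tmem128 (1.40), Lsr (1.30), Igsf10 (0.87), Phf21a (0.77) and Gas5 (0.53). Of the 16 lowered probe sets 5 were also below kainic acid alone and 2 above it. Without kainic acid replicate 2 or 3, 465 and 559 probe sets were higher and 309 and 367 lower. When replicate 3 of the group with both drugs was left out, 590 were higher. With each array centred on its median the split was 757 higher and 596 lower, and after quantile normalization 748 and 621.

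The effect of kainic acid itself could be compared with and without the inhibitor: the difference between SL327 with kainic acid and SL327 was set against that between kainic acid and vehicle. This contrast passed the test in 5.76% of all tested probe sets and in 24 of the 69 called ones, which share arrays with it. In Sik1 kainic acid added 0.15 in the presence of SL327 and 1.76 in its absence, a difference of -1.61 ± 0.14 (SE, limma adjusted p = 1.37e-05). In Dusp1 it added 0.70 and 2.84, a difference of -2.14 ± 0.41 (limma adjusted p = 0.00625). In Cry2 it added 1.30 and 1.21, a difference of 0.09 that did not pass the test (limma adjusted p = 0.95).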

How the data were processed

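RNA was hybridised by the authors to Affymetrix Mouse Exon 1.0 ST arrays, with 1 hippocampus per array. The deposited table holds log2 values that the authors made by RMA with the oligo package (versions not given in the sources used here). RMA corrects background, quantile-normalizes arrays and summarises probes, which can compress low and small changes. Genes were named by the platform annotation: of 20372 probe sets 14704 had 1 gene, 713 several and 4955 none. Every deposited probe set had at least 3 arrays at 6.42 or more, so low rows were removed before deposit. Kept were named probe sets that exceeded, on 3 arrays or more, the median of the array (8520 of 15417). All 5 groups were fitted as group means in limma 3.58.1 (R 4.3.3), with moderated two-sided tests and Benjamini-Hochberg adjustment over all 8520, called at 0.05, after the scripts were tested on simulated data. Residual degrees of freedom were 11. The errors quoted are standard errors of this fit, and the number of arrays limits the precision. The labels do not say whether animals shared a litter or day, so p-values measure the spread between these samples, which may be in part technical. No 2 arrays correlated above 0.987.

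The members and lists were chosen with earlier results of these data known. Named were genes with a called probe set, the 10 largest changes in each direction without a call, up to 6 members of each list with the largest change, and genes the study followed in situ. Other genes were chosen after their values were seen. A list used the tested probe set of highest mean per gene. Promoter windows came from RefSeq, GRCm38.p6. The array table names no build, so no other coordinates are given. The alternatives covered filters, scaling, moderation, controls, a replicate block and leaving out each array. Arrays of 4 h and 8 h were not analysed here.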

Additional observations from a re-analysis of the deposited data

Results flagged for a closer look

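The change made by kainic acid in the presence of SL327 was compared with that in its absence by a limma test of the difference itself. It differed in 36 of the 95 probe sets of genes described above or looked at with them, and in 5.76% of all tested probe sets. The difference was negative in 32 genes and positive in 4. In all 36 the estimated change was nearer 0 with SL327 than without it, and in 10 it had the opposite sign. The contrast shares arrays with the comparison against vehicle, so the counts are no separate evidence.

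Among activity genes and regulators the log2 difference of the changes was -2.34 for Inhba, -2.22 for Ptgs2, -1.97 for Egr3, -1.74 for Gadd45b, -1.59 for Nr4a3, -1.56 for Arc, -1.52 for Homer1, -1.18 for Egr2, -0.96 for Plk2, -0.91 for Csrnp1 and -0.81 for Egr1. Feedback and CREB-related genes gave -2.14 for Dusp1, -2.03 for Ifrd1, -1.72 for Errfi1, -1.61 for Sik1, -1.21 for Per1 and -0.92 for Irs2. Glucocorticoid, stress and metal-responsive genes gave -0.93 for Cdkn1a, -0.90 for Mt2, -0.68 for Sgk1, -0.52 for Slc30a1 and -0.44 for Arrdc2.

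Other genes with a negative difference were Neat1 (-0.73), Gla (-0.70), Lyrm9 (-0.68), Zwint (-0.65), Myl6 (-0.55), Rian (-0.49), Pop4 (-0.34), Cct2 (-0.29), Senp2 (-0.28) and Arpc4 (-0.24). In the remaining 4 the difference was positive: 4632427E13Rik (1.18), Akirin2 (0.48), Lsr (0.48) and Stx2 (0.32).

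One untreated mouse stood apart in Homer1, with a log2 value of 9.04 in replicate 4 against 8.77, 8.79 and 8.78 in the others. It was 1 of 95 untreated groups examined, of which chance alone marks about 1 in 20.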

How the results depend on the processing

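With all arrays, 58 probe sets were higher and 16 lower than vehicle. Weighting arrays by their scatter gave 271 higher and 88 lower, vehicle and untreated mice taken as 1 group 135 and 102, and the 6 arrays alone 35 higher. Comparison with the untreated group gave 88 lower, probe sets without a gene name included 39, 1 probe set per gene 8, and adjustment over only those changed by kainic acid 35. Leaving out 1 array gave 9 to 114 higher and 3 to 26 lower. Same-numbered arrays of the groups with both drugs and with vehicle did not deviate together (correlations of -0.03, -0.10 and -0.22). With 3 arrays in each group this cannot tell whether same-numbered mice were handled together. A replicate block gave 21 higher and 7 lower. Against SL327 alone, array weights gave 5 higher and 6 lower, and leaving out 1 array 0 to 32 and 0 to 15. Against kainic acid alone, leaving out 1 array gave 465 to 1460 higher and 309 to 579 lower, beside 1114 and 499, and the replicate block 865 and 442. Over the called single-gene probe sets and their alternatives, 1440 values kept direction and call, 569 kept direction only, and 1 reversed, Lyrm9 at -0.11 against the untreated group. Among uncalled genes near 0, leaving out 1 array gave log2 changes of -0.053 to 0.0054 for Homer1, -0.052 to 0.31 for Lncpint and -0.0095 to 0.12 for Neat1. The causes were not tested.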
